A study of Mus musculus with 4 samples.

Results

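Monocytes enter tissue along gradients of chemokines, and 6 genes of that route were followed here in human immune cells taken from breast tumors: the chemokine receptors CCR2 (ENSG00000121807), CX3CR1 (ENSG00000168329), CCR1 (ENSG00000163823) and CXCR4 (ENSG00000121966), and the chemokines CCL2 (ENSG00000108691) and CCL7 (ENSG00000108688). They were taken by gene name from the 36601 genes counted in both sequencing reactions, of which 30199 had at least 1 transcript in a retained cell, and all 6 were among these. The cells came from MISTRG mice, which carry human genes for M-CSF, GM-CSF and IL-3, and which had been irradiated and engrafted with human CD34+ stem cells so that a human immune system formed. All mice received MDA-MB-231 cells, a human triple-negative breast cancer line, in the mammary fat pad on day 0. Untreated mice (n = 7) were compared with mice given the drug maraviroc at 300 mg/l in drinking water from day 21 for 10 days (n = 7), and tumors were collected on day 31. Cell suspensions were labelled with 1 hashtag antibody per mouse, and live human CD45+ cells were then sorted. The cells formed 2 pooled reactions, with untreated 1 to 4 and maraviroc 1 to 3 in the first. The second held untreated 5 to 7 and maraviroc 4 to 7. Treatment was read from the hashtag names. Whether mice shared a graft donor is not given, so no p-value reaches beyond these mice.

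CCR2 is the receptor that lets classical monocytes leave the bone marrow and enter inflamed tissue, and CCL2 and CCL7 are its ligands, made by tumor, stromal and myeloid cells. CX3CR1 binds fractalkine on endothelium and marks patrolling monocytes, some tissue macrophages and dendritic cells. CCR1 binds CCL3, CCL5, CCL7 and related chemokines, and CXCR4 binds CXCL12, which holds leukocytes in marrow and in perivascular niches. The CXCR4 gene is known to be induced by hypoxia.

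Of 42702 cell barcodes, 37806 held 601 to 6000 genes and a low share of mitochondrial transcripts, and 19817 of these carried a single hashtag (11917 in the first reaction and 7900 in the second). Mice contributed 758 to 3030 cells and 5996882 to 14782548 transcripts (unique molecular identifiers, UMIs) each. The median depth was 3020 UMIs per cell in the first reaction and 9692 in the second. The libraries shared 136 barcodes, 31 of them among retained cells. Gates on UMIs of marker genes, none of which was among the 6, placed 14501 cells in classes, among them 2619 monocytes, 5414 macrophages, 454 dendritic cells, 160 plasmacytoid dendritic cells (pDC), 3288 T cells and 2136 NK cells. A further 148 barcodes passed an epithelial gate and were called tumor cells, although CD45+ cells had been sorted, and their PTPRC level (the CD45 gene) was 143 and 9.18 UMIs per 1000000 (CPM) in the first and second reaction. RNA of other cells was present in the droplets, more so in the first reaction: macrophage marker genes together stood at 1175 and 201 CPM in NK cells. Levels below are CPM of a class within 1 mouse, for mice with at least 10 cells of that class.

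CCR2 was highest in monocytes. Its level in monocytes was 57.3 ± 11.6 CPM (SD, n = 14 mice), with a lowest, median and highest mouse of 37.7, 57.9 and 81.4 CPM. Monocytes with S100A12 (56.7 ± 16.6 CPM) and monocytes without it (56.9 ± 13.7 CPM) were alike in mean, and CD1C+ dendritic cells (cDC2) followed at 31.8 ± 16.2 CPM (n = 11). Next came pDC at 24.1 ± 19.96 CPM (n = 7) and regulatory T cells at 22.1 ± 11.2 CPM (n = 11), where CCR2 is known from effector-type cells. Every macrophage state lay between 2.42 CPM (LYVE1+) and 11.9 CPM (C1Q), and NK cells, which served as a measure of free RNA, lay at 1.93 ± 2.20 CPM. After every cell was thinned to 2000 UMIs, 9.90% and 10.96% of monocytes (first and second reaction) held a CCR2 transcript, against 1.57% and 1.27% of macrophages and 0.439% and 0.452% of NK cells.

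CX3CR1 was led by cDC2, at 62.3 ± 22.4 CPM, with a lowest, median and highest mouse of 20.1, 61.2 and 95.4 CPM. Monocytes held 36.8 ± 8.68 CPM. C1Q macrophages (23.5 ± 9.53 CPM) and cycling macrophages (20.5 ± 9.67 CPM) were the highest macrophage states, and GLUT1+ macrophages (4.59 ± 6.56 CPM) the lowest. CX3CR1 is known from cytotoxic lymphocytes in blood, but CD8+ T cells held 6.31 ± 6.05 CPM and NK cells 2.71 ± 2.57 CPM. No CX3CR1 UMI was seen in 149 B cells, where 3 counts would be 16.7 and 3.73 CPM. After thinning, a CX3CR1 transcript was found in 6.19% and 4.92% of monocytes and in 0.658% and 0.679% of NK cells.

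CCR1 was found in all monocyte and macrophage classes and in cDC2. Monocytes with S100A12 had 195 ± 34.5 CPM, CXCL10+ macrophages 173 ± 24.7 CPM, LYVE1+ macrophages 173 ± 47.8 CPM, cDC2 168 ± 63.9 CPM and C1Q macrophages 119 ± 16.4 CPM. T and NK cells were lower, from 89.5 ± 30.9 CPM in regulatory T cells and 55.0 ± 13.5 CPM in NK cells to 26.7 ± 12.8 CPM in T cells that were neither CD8+ nor regulatory. pDC (13.6 ± 5.36 CPM), tumor cells (12.52 ± 11.5 CPM), B cells (4.53 ± 7.36 CPM) and mast cells (1.56 ± 4.40 CPM) were lowest among classes with at least 6 mice.

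CXCR4 followed another order. pDC held 803 ± 117 CPM, with 656, 788 and 1031 CPM in the lowest, median and highest of 7 mice, and no mouse of any other class reached the lowest of these. The T cells that were neither CD8+ nor regulatory (291 ± 60.4 CPM), GLUT1+ macrophages (283 ± 98.6 CPM), B cells (270 ± 126 CPM) and CD8+ T cells (253 ± 68.2 CPM) came next. NK cells, monocytes and the other macrophages were lower. NK cells held 152 ± 43.9 CPM, monocytes 115 ± 24.9 CPM, macrophages as a whole 72.7 ± 16.1 CPM and LYVE1+ macrophages 22.9 ± 21.7 CPM. Conventional dendritic cells were low where they were CD1C+ (56.0 ± 29.1 CPM), while mature dendritic cells, a class with 85 cells, had 328 and 194 CPM over all cells of the first and second reaction.

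CCL2, the main ligand of CCR2, was found mainly in macrophages and monocytes. CXCL10+ macrophages held 1752 ± 590 CPM, macrophages with IL1A and CCL20 1596 ± 807 CPM and TREM2/SPP1 macrophages 1476 ± 530 CPM, against 671 ± 162 CPM in C1Q and 417 ± 207 CPM in GLUT1+ macrophages. Monocytes held 761 ± 320 CPM, with a lowest, median and highest mouse of 272, 709 and 1425 CPM. Mast cells had 433 ± 409 CPM and cDC2 245 ± 205 CPM. Lymphocytes and tumor cells were far lower. Tumor cells had 81.4 ± 66.1 CPM, NK cells 35.8 ± 27.6 CPM and T cells 27.8 ± 12.9 CPM. In tumor and NK cells CCL2 was 85.5 and 55.3 CPM in the first reaction and 9.18 and 14.6 CPM in the second, which moved with the macrophage transcripts found in NK cells. Their part in the CCL2 level of tumor cells was not tested. CCL2 was also unevenly held: after thinning, 56.8% and 49.9% of macrophages had a transcript, against 8.44% and 2.71% of NK cells, and the highest 10% of macrophages held 48.9% and 52.7% of the CCL2 UMIs of all macrophages.

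CCL7, which binds both CCR2 and CCR1, varied widely between mice. CXCL10+ macrophages had 98.2 ± 115 CPM, with a lowest, median and highest mouse of 10.6, 75.7 and 419 CPM. MT1G+ macrophages (71.7 ± 81.7 CPM), those with IL1A and CCL20 (65.2 ± 63.3 CPM) and TREM2/SPP1 macrophages (55.7 ± 70.6 CPM) followed, then C1Q macrophages (16.2 ± 13.3 CPM) and monocytes (13.98 ± 12.6 CPM). GLUT1+ macrophages (4.43 ± 7.58 CPM), cDC2 (2.20 ± 4.15 CPM), T cells (1.27 ± 2.40 CPM) and NK cells (1.23 ± 1.55 CPM) were low. In pDC a single CCL7 UMI was seen in the first reaction and none in the second, where 3 counts would be 2.22 CPM.

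**Figure D1:**
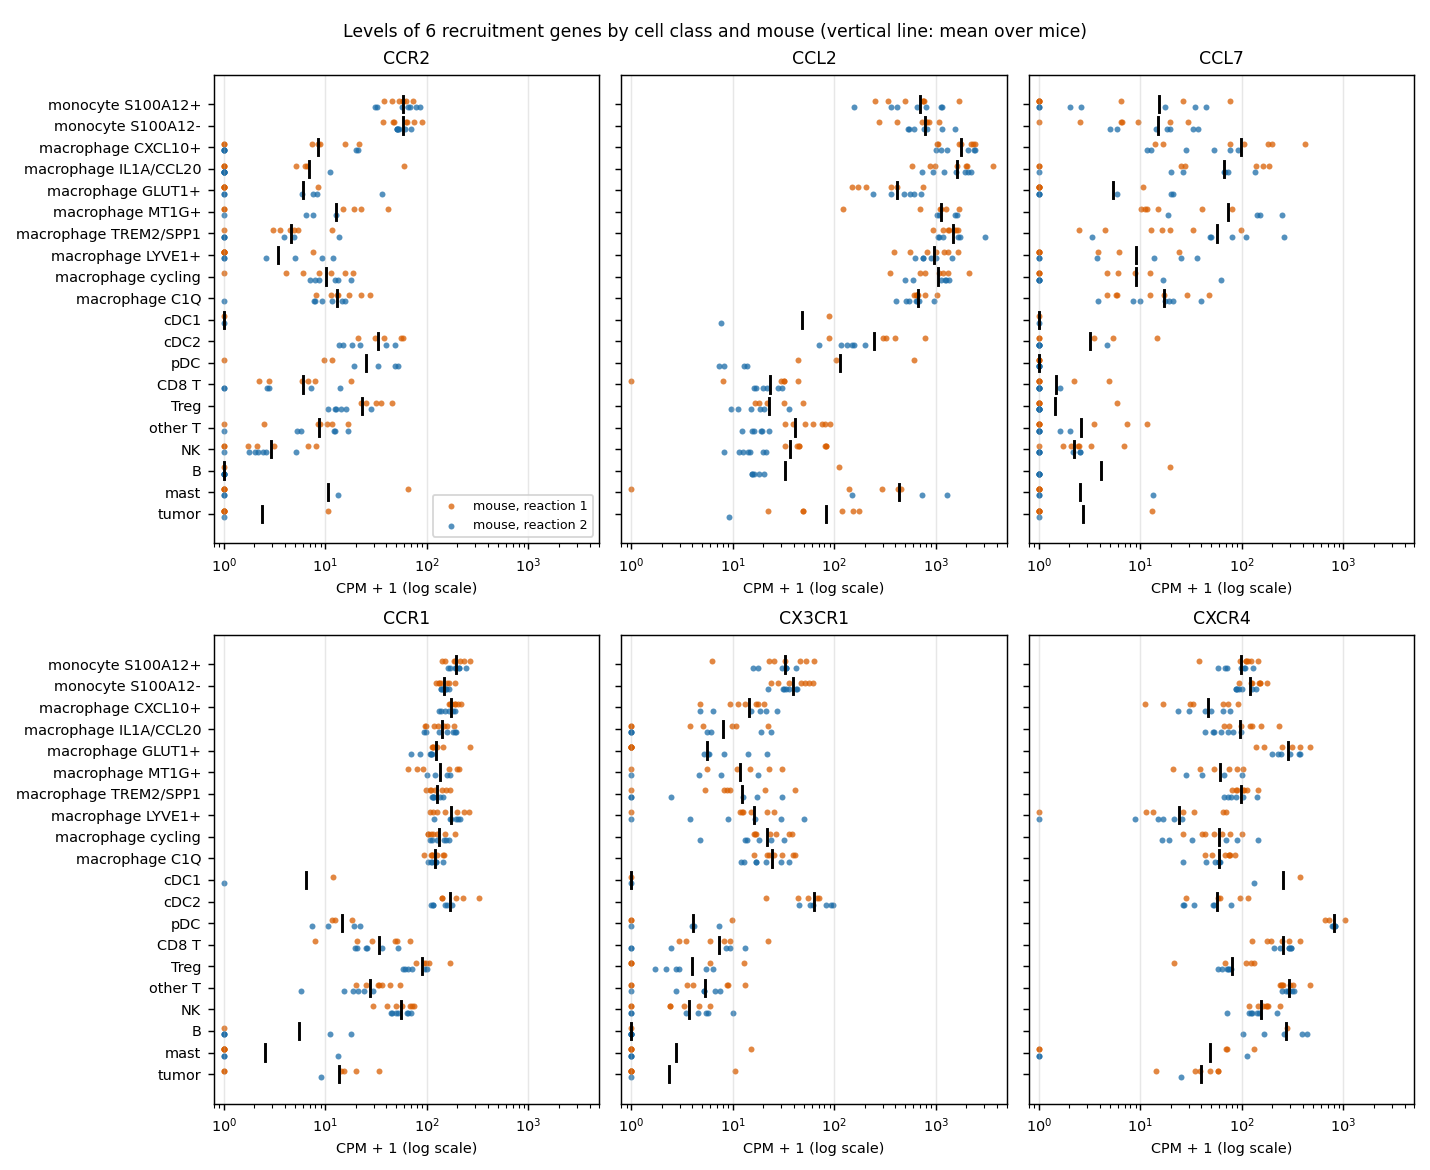
Levels of the 6 genes in 20 cell classes, as CPM plus 1 on a log axis, with 1 point per mouse coloured by reaction and a vertical line at the mean over mice. CCR2 is highest in the monocyte classes (about 57 CPM), CX3CR1 in cDC2 (62.3 CPM), CXCR4 in pDC (803 CPM), and CCL2 in CXCL10+ macrophages (1752 CPM).

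Neighbouring classes in the order of mean levels were compared within mice with a two-sided exact sign-flip permutation test, in 19 pairs per gene. Type 1 conventional dendritic cells and B cells, neighbours for CCR2, CCR1 and CX3CR1, shared 1 mouse, so these pairs could not be tested. Of the pairs tested, 0 passed an adjusted p of 0.05. The lowest adjusted p was 0.108, for CCR1 in regulatory T cells over NK cells, higher in 11 of 11 mice. Its raw exact p of 0.000977 was the lowest that 11 mice allow. Pairs that shared 2 mice could not go below a raw exact p of 0.5. Not passing therefore does not show that neighbouring classes were alike. CCR2 was higher in monocytes with S100A12 than in cDC2 in 10 of 11 mice (adjusted exact p = 0.163). CXCR4 was higher in pDC than in the next class in 7 of 7 mice, where the exact test cannot go below a raw p of 0.0156 (adjusted exact p = 0.289).

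Between monocytes and macrophages of the same mice, 4 receptors were higher in monocytes and both ligands higher in macrophages. The test was edgeR's quasi-likelihood test on UMIs summed per mouse and class, with mouse as a block. All classes were fitted together and shared the spread of a gene, with several classes entering from each mouse. The edgeR p-values of class comparisons therefore do not measure how a single difference varied between mice, which the mouse counts describe. Benjamini-Hochberg adjustment was over 12164 genes, and all 6 genes passed, where 58.5% of all genes tested did. Its log2 differences set the unweighted mean of the monocyte classes against that of the macrophage states. The CPM and mouse counts beside them pool all cells of a group within a mouse, so the sizes need not match. CCR2 ranged from 37.7 to 81.4 CPM in monocytes and from 2.47 to 15.3 CPM in macrophages of the 14 mice. These groups did not overlap, and the log2 difference was 3.37 ± 0.15 (SE; edgeR adjusted p = 7.34e-54). CX3CR1 was 35.2 CPM in the median monocyte sample and 17.1 CPM in the median macrophage sample, higher in 13 of 14 mice (log2 difference 1.58 ± 0.16, edgeR adjusted p = 2.59e-18). CXCR4 (0.83 ± 0.10) and CCR1 (0.40 ± 0.07) were each higher in monocytes in 12 of 14 mice, with groups that overlapped.

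The ligands went the other way. CCL2 ranged from 272 to 1425 CPM in monocytes and from 605 to 1439 CPM in macrophages, and was lower in monocytes in 13 of 14 mice (log2 difference -0.42 ± 0.14, edgeR adjusted p = 0.00730). CCL7 was lower in monocytes in 14 of 14 mice, with medians of 10.6 and 32.4 CPM (log2 difference -0.72 ± 0.28, edgeR adjusted p = 0.0206). The CCL7 call rested on single mice: it was lost without untreated 5 (-0.68) and without untreated 6 (-0.55).

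Levels were also followed along a scale made from the same marker lists that had separated monocytes from macrophages. The scale is therefore no separate support for the class differences. Monocytes and macrophages, with the myeloid cells between them, were ordered by the macrophage share of their monocyte and macrophage marker UMIs, from 0 to 1. CCR2 went from 60.98 CPM in cells with a share under 0.1 through 52.7, 37.9, 27.2 and 11.6 CPM to 3.48 CPM in cells above 0.9. CX3CR1 went from 41.0 to 14.7 CPM, also without a reversal. CCR1 stayed between 128 and 166 CPM. CXCR4 held 133 CPM in the first and second bins and 71.5 to 77.9 CPM in the upper 3. CCL2 was lowest at the monocyte end (517 CPM) and stood between 842 and 1043 CPM in all other bins, and CCL7 went from 7.63 to 39.0 CPM. These are descriptions over bins that share libraries, and 754 of 8962 cells had a share of 0.4 to 0.6.

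**Figure D2:**
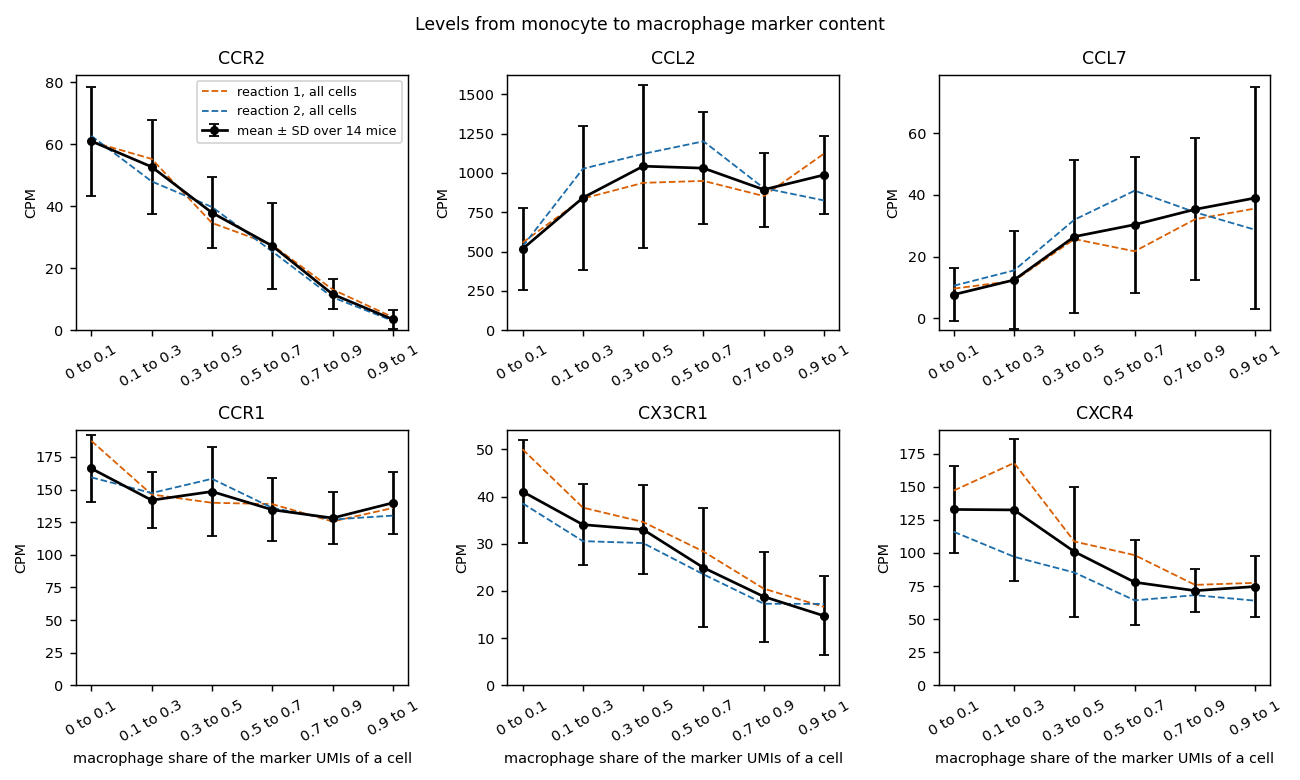
Level in CPM of each gene against the macrophage share of a cell's monocyte and macrophage marker UMIs, as mean ± SD over 14 mice (black) and for all cells of each reaction (dashed). CCR2 goes from 60.98 to 3.48 CPM and CX3CR1 from 41.0 to 14.7 CPM, while CCR1 stays between 128 and 166 CPM in the means.

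A wider list of 34 genes of chemokine-driven entry, of which 26 could be tested, divided by role in the same comparison. All 7 tested ligands were lower in monocytes, among them CCL13 (log2 difference -3.39) and CCL8 (-1.92), further ligands of CCR2, and CCL3 (-0.89) and CCL5 (-1.21), ligands of CCR1. The 3 tested receptors were higher, including the scavenging receptor ACKR3 (1.24). Of 8 adhesion genes, 6 were higher and 1 lower, with SELPLG, a ligand in leukocyte rolling, at 1.013 and the hyaluronan receptor CD44 at 1.46. The signalling genes were mixed, with 3 of 8 higher and 2 lower, led by RGS1 (-2.21), a brake on chemokine receptor signalling. In total 12 rose and 10 fell, where 58.5% of all genes passed, and the median size of the difference was 0.93 against 0.37 for all genes.

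Monocytes with S100A12, an alarmin of classical monocytes, differed from the other monocytes in 1 of the 6 genes, where 11.9% of all genes passed. CCR1 was 141, 190 and 262 CPM in the lowest, median and highest mouse with S100A12 and 121, 143 and 190 CPM without it. It was higher in 13 of 14 mice (log2 difference 0.45 ± 0.11, edgeR adjusted p = 0.00202). CCR2 was higher in 8 of 14 mice and did not pass. On the wider list 2 genes rose and 6 fell, with CCL8 (-1.96) and CCL13 (-1.62) among those that fell.

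GLUT1+ macrophages, gated by SLC2A1, HILPDA, ADM, NDRG1 and other genes known to be induced in low oxygen, had the largest difference in CXCR4 of any macrophage state. In the 12 mice with at least 10 such cells, CXCR4 was 136, 272 and 467 CPM in the lowest, median and highest, against 35.8, 61.9 and 84.4 CPM in all other macrophages. The groups did not overlap, and the log2 difference from the mean of the other states was 2.50 ± 0.15 (edgeR adjusted p = 8.04e-38). Of the 6 genes 4 passed, where 27.2% of all genes did and the median difference of all genes was -0.12. CCL2 was lower in 11 of 12 mice, with 149, 387 and 752 CPM against 601, 1043 and 1463 CPM (log2 difference -1.34 ± 0.24, edgeR adjusted p = 1.25e-06). CCL7 was lower in 12 of 12 mice, with a median of 0 against 33.6 CPM (-2.37 ± 0.72). CX3CR1 was lower in 10 of 12 mice (-1.38 ± 0.55, edgeR adjusted p = 0.0494), a call that was lost with another scaling of the libraries and in 11 of 14 fits leaving out a mouse, being kept without untreated 5, maraviroc 5 or maraviroc 6.

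CXCR4 also rose over bins of the list that gates GLUT1+ macrophages. The bins are therefore no separate support for the class difference. Their values pool all cells of a reaction and give no spread between mice. Over macrophages with 0, up to 5, 5 to 15, 15 to 30 and above 30 UMIs of the GLUT1 list per 10000, CXCR4 was 51.3, 53.5, 120, 205 and 436 CPM in the first reaction and 28.8, 43.0, 105, 199 and 365 CPM in the second. CCL2 went from 1065 to 233 CPM and from 943 to 207 CPM over the same bins. In monocytes CXCR4 went from 115 to 455 CPM and from 74.2 to 463 CPM, although the last bin held 10 and 13 cells. T cells showed no such order over the bins up to 15. From 0 to the 5 to 15 bin their CXCR4 was 250, 195 and 248 CPM in the first reaction. It was 244, 190 and 231 CPM in the second. T cells in the bins above 15, and NK cells, are not reported here. The dissociation genes, a list of 11 immediate early and heat shock genes, stood at 4991 and 6336 CPM in macrophage GLUT1+ cells and at 3608 and 3687 CPM in macrophages as a whole, and their part in the CXCR4 difference was not tested. A total of 429 of 5414 macrophages lay within 10 to 20 list UMIs per 10000, near the limit of 15. In the 2 mice with fewer than 10 GLUT1+ cells CXCR4 was also higher in them, so that the direction held in 14 of 14.

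**Figure D3:**
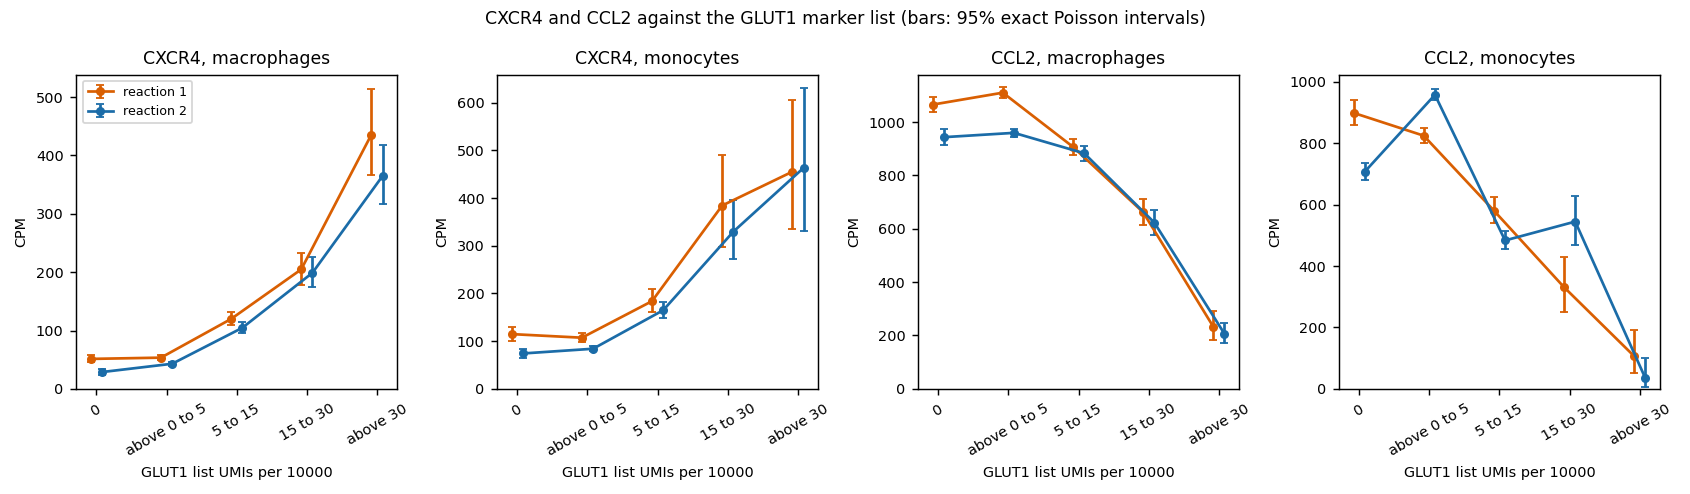
CXCR4 and CCL2 level in CPM of macrophages and monocytes in 5 bins of GLUT1 list UMIs per 10000, for each reaction, with exact Poisson intervals at 95% that cover counting error only. CXCR4 in macrophages goes from 51.3 to 436 CPM and from 28.8 to 365 CPM, and CCL2 from 1065 to 233 CPM and from 943 to 207 CPM.

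Both ligands were higher in the inflammatory macrophage states. In CXCL10+ macrophages, an interferon-type state, CCL2 was 1007, 1770 and 2438 CPM in the lowest, median and highest of 13 mice, against 585, 907 and 1307 CPM in the other macrophages, higher in 13 of 13. The log2 difference from the mean of the other states was 0.89 ± 0.18 (edgeR adjusted p = 4.20e-05). CCL7 was higher in 10 of 13 mice (2.33 ± 0.29, edgeR adjusted p = 1.46e-11) and CCR1 in 12 of 13 (0.39 ± 0.10). CXCR4 was lower in 9 of 13 (-0.57 ± 0.19, edgeR adjusted p = 0.0307), a call that was lost without untreated 1 (-0.54), 3 (-0.52), 4 (-0.43) or 6 (-0.53) or maraviroc 4 (-0.55). That made 4 of the 6 genes, where 14.3% of all genes passed, and on the wider list 8 rose and 2 fell, led by CCL8 (3.07), CCL5 (1.43) and the kinase JAK2 (1.33). With stricter gates (raised entry limits), CCL7 was the 1 gene of the 4 that still passed. Macrophages under a raised state limit then counted as C1Q macrophages.

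Macrophages with IL1A and CCL20, whose gate also holds CXCL1, CXCL3, CXCL5 and IL6, had more CCL2 in 12 of 14 mice, with 582, 1588 and 3636 CPM against 588, 936 and 1396 CPM (log2 difference 0.80 ± 0.18, edgeR adjusted p = 0.000507). CCL7 was higher in 9 of 14 mice (1.73 ± 0.33). These were 2 of the 6 genes, where 8.07% of all genes passed. The wider list had 7 genes up and 2 down, led by ACKR3 (1.87), CCL4 (1.54) and CCL3 (1.51).

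TREM2/SPP1 macrophages, a lipid-associated state, had more CCL2 in 13 of 13 mice, with 925, 1345 and 3015 CPM against 541, 931 and 1402 CPM (log2 difference 0.64 ± 0.18, edgeR adjusted p = 0.0182). CXCR4 was higher in 12 of 13 mice (0.67 ± 0.15, edgeR adjusted p = 0.000869) and CCL7 in 7 of 13 (1.09 ± 0.31). This was 3 of the 6 genes, where 4.92% of all genes passed, and the wider list had 8 genes up and 0 down. The CCL2 call was lost without maraviroc 5 (0.55), and that of CCL7 without maraviroc 5 (0.79) or untreated 6 (0.86), and CCL7 stood at -0.056 with stricter gates. MT1G+ macrophages, marked by metallothioneins, passed for CCL7 alone among the 6, where 6.1% of all genes passed: its log2 difference was 1.59 ± 0.35, it was higher in 6 of 10 mice, and the call was lost without untreated 5 (1.23).

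LYVE1+ macrophages, which resemble perivascular resident cells, had little CXCR4: it was 0, 15.7 and 69.1 CPM in the lowest, median and highest of 13 mice, against 47.5, 74.0 and 110 CPM in the other macrophages. The difference was -2.23 ± 0.25 on the log2 scale (edgeR adjusted p = 7.14e-15), lower in 12 of 13 mice. CCL7 was lower in 12 of 13 (-1.65 ± 0.52) and CCR1 higher in 9 of 13 (0.34 ± 0.10). This was 3 of the 6 genes, where 26% of all genes passed, close to cycling macrophages, where 26.9% did and 2 of the 6 passed. In cycling macrophages CCL7 was lower in 13 of 13 mice (-1.90 ± 0.49), and CX3CR1 higher in 8 of 13 (0.79 ± 0.26), a call lost without maraviroc 3 (0.60) and -1.70 with stricter gates.

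C1Q macrophages were those left after all state gates, with no state gate of their own. They held more CCR2 and CX3CR1 than the mean of the other states, and had the highest mean of any macrophage state for both. Only the next highest state was tested singly for either gene. Mean CCR2 was 11.9 CPM in C1Q and 11.8 CPM in MT1G+ macrophages. Mean CX3CR1 was 23.5 CPM in C1Q and 20.5 CPM in cycling macrophages. Neither pair passed the exact sign-flip test (adjusted p = 0.993 and 0.912), which does not show that the states were alike. CCR2 was 0, 11.4 and 26.3 CPM in the lowest, median and highest mouse, against 2.79, 4.31 and 11.8 CPM in the other macrophages (log2 difference 1.14 ± 0.22, edgeR adjusted p = 0.000120, higher in 11 of 14). CX3CR1 was higher in 13 of 14 mice (0.97 ± 0.19, edgeR adjusted p = 0.000106), CCL2 lower in 14 of 14 (-0.72 ± 0.19) and CCR1 lower in 13 of 14 (-0.28 ± 0.09). This was 4 of the 6 genes, where 9.55% of all genes passed. The CCR1 call was lost without maraviroc 6 (-0.19), and with stricter gates none of the 4 passed. The C1Q class then also held cells that the main limits had placed in other states.

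Set against monocytes, cDC2 differed in 5 of the 6 genes, where 32.5% of all genes passed. CX3CR1 was 61.2 CPM in the median of 11 mice against 35.7 CPM in their monocytes, higher in 9 of 11 (log2 difference 0.84 ± 0.22, edgeR adjusted p = 0.00106). CCR2 was lower in 11 of 11 mice (-0.93 ± 0.24, edgeR adjusted p = 0.000712), as were CXCR4 (-0.91 ± 0.20) and CCL2 (-1.75 ± 0.27), and CCL7 was lower in 10 of 11 (-3.32 ± 0.94). CCR1 was higher in 6 of 11 mice and did not pass. On the wider list 3 genes rose and 7 fell. With stricter gates and in the first reaction by itself CCL2 was the 1 gene of the 5 that passed.

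Among lymphocytes, T cells had more CCR2 than NK cells, with 4.23, 10.2 and 19.9 CPM in the lowest, median and highest of 13 mice against 0, 1.14 and 7.16 CPM (log2 difference 2.17 ± 0.34, edgeR adjusted p = 1.18e-08, higher in 13 of 13). CCR1 was lower in T cells in 10 of 13 (-0.42 ± 0.11, edgeR adjusted p = 0.000738). These were 2 of the 6 genes, where 36.6% of all genes passed. CXCR4 was higher in T cells in 11 of 13 mice, with medians of 202 and 145 CPM, and did not pass. The T cell classes were not alike. Mean CCR1 was 89.5 CPM in regulatory T cells, above NK cells (55.0 CPM) in 11 of 11 mice. It was 32.9 CPM in CD8+ and 26.7 CPM in other T cells. Mean CCR2 was 22.1, 5.05 and 7.73 CPM in regulatory, CD8+ and other T cells. Mean CXCR4 was 78.6, 253 and 291 CPM in them, against 152 CPM in NK cells.

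Tumor cells were lower than macrophages in 5 of the 6 genes, where 51.7% of all genes passed. In the 7 mice with at least 10 such barcodes, CCL2 was 8.11, 48.0 and 173 CPM against 745, 993 and 1439 CPM in macrophages, with no overlap (log2 difference -4.03 ± 0.45, edgeR adjusted p = 2.72e-15). CCR1 (-3.47 ± 0.31), CX3CR1 (-3.21 ± 1.14), CCL7 (-4.02 ± 1.56) and CXCR4 (-0.95 ± 0.35) were each lower in 7 of 7 mice. CCL7 moved to -6.66 without untreated 3 and CX3CR1 to -5.81 without maraviroc 2. The calls of CCL7 and CXCR4 were lost without maraviroc 7 (-3.75 and -0.81). These barcodes came through a sort for CD45, so they need not stand for the tumor cells of the tissue.

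The transcripts of each gene were then counted over all retained cells. Macrophages, 28.9% and 24.9% of cells in the first and second reaction, held 57.8% and 53.6% of CCL2 UMIs and 67.5% and 65.8% of CCL7 UMIs. Monocytes, 9.82% and 18.3% of cells, held 46.8% and 59.0% of CCR2 UMIs. CX3CR1 was divided between macrophages (36.4% and 29.1%) and monocytes (31.2% and 38.6%). CXCR4 had no main source, with 20.2% and 15.7% in macrophages, 18.1% and 32.1% in T cells and 4.72% and 9.53% in the few pDC. Cells that passed no gate, 32.7% and 6.19% of all, held 15.1% and 1.25% of CCL2.

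**Figure D4:**
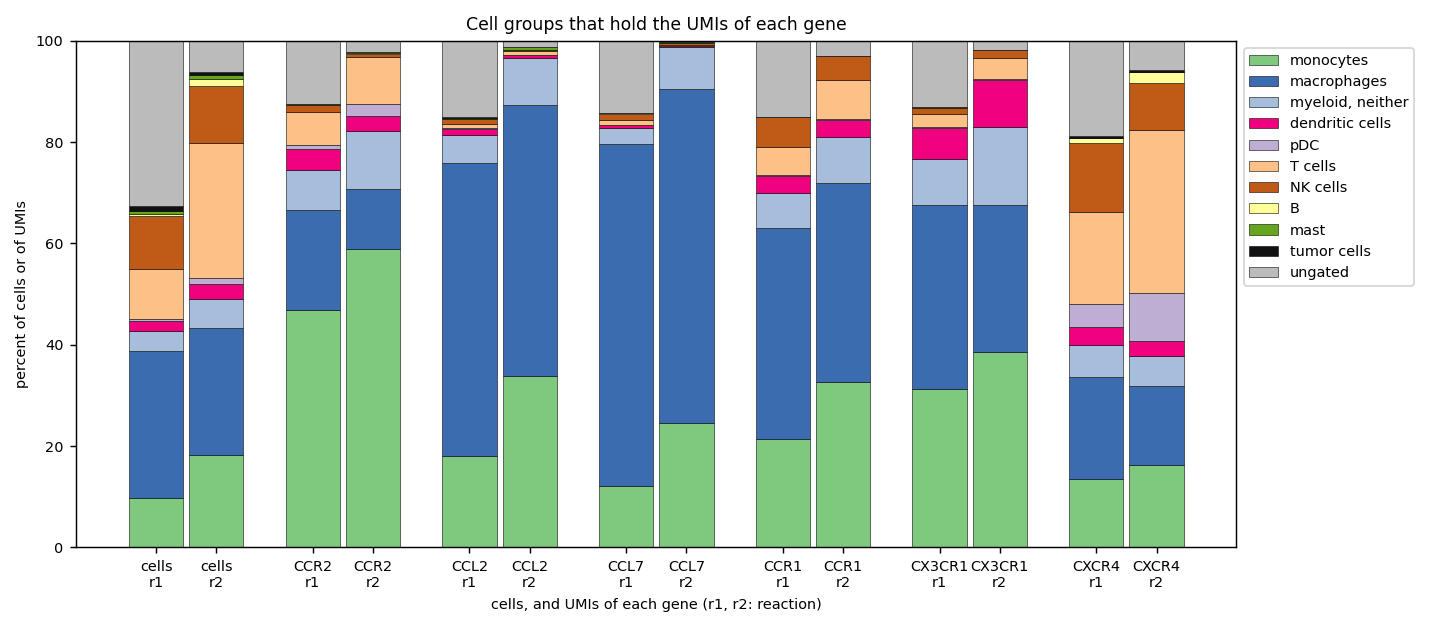
Percent of retained cells, and of the UMIs of each gene, found in each cell group, for reaction 1 (r1) and reaction 2 (r2), stacked to 100. Macrophages hold most CCL2 (57.8% and 53.6%) and CCL7 UMIs, monocytes hold the largest share of CCR2 UMIs (46.8% and 59.0%), and CXCR4 is spread over lymphoid and myeloid groups.

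Within macrophages the ligands were found under the same barcodes. At 2000 UMIs per cell, CCL7 was detected in 5.85% and 6.44% of macrophages with CCL2 and in 1.04% and 1.02% of those without. Of the 101 and 73 macrophages with CCL7, 89 and 63 also held CCL2. Within CXCL10+ macrophages CCL7 was detected in 14.8% and 8.75% of cells with CCL2 and in 3.57% and 4.26% without. Within macrophages with IL1A and CCL20 it was 8.70% and 13.8% against 0% and 1.89%. These shares rest on 26 and 9, and on 10 and 13, cells with CCL7. The part of macrophage states in the pooled shares was not tested. In monocytes CXCR4 was found in 13.7% and 8.22% of cells with CCL2 and in 21.6% and 18.7% of cells without it. Receptor and ligand were also found under the same monocyte barcodes: 41.7% and 38.6% of monocytes with CCR2 held CCL2, against 39.8% and 28.4% of monocytes without CCR2. Several hashtags were carried by 10174 of 27645 barcodes within the limits in the first reaction and 2142 of 10161 in the second. Hashtags do not show cells of the same mouse that share a barcode. The part of such barcodes, and of free RNA, in these shares was not tested.

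The genes whose means over 20 classes were most alike in order were taken from 11062 genes, as a description over classes that share libraries and gates. For CCR2 these were EIF4G2, MAPKAPK3 and JAML (Spearman's rho 0.858, 0.851 and 0.837). For CX3CR1 they were ASGR2, CEACAM4 and BNIP2 (0.957, 0.932 and 0.930), for CCR1 TOR1B, ASGR2 and ACPP (0.919, 0.916 and 0.909), and for CXCR4 GFOD1, YPEL5 and DGKE (0.898, 0.877 and 0.853). CCL2 was most like CD14, CXCL1 and FCGR1A (0.947, 0.944 and 0.931), and CCL7 like IL6 and LINC02345 (0.933 and 0.927). CD14, CXCL1 and IL6 were themselves used in the gates.

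Whether maraviroc changed these genes was asked within each class. In monocytes, CCR2 was 37.7, 57.8 and 68.9 CPM in the lowest, median and highest of 7 untreated mice and 46.1, 58.0 and 81.4 CPM in 7 maraviroc mice (log2 difference 0.05 ± 0.14, edgeR adjusted p = 0.9999). Monocyte CCL2 was 272, 767 and 1237 CPM against 457, 651 and 1425 CPM (0.12 ± 0.27). The groups overlapped in both genes. CCR1 (-0.10 ± 0.10), CX3CR1 (-0.06 ± 0.17), CXCR4 (-0.17 ± 0.15) and CCL7 (-0.25 ± 0.52) differed by no more than about their standard errors.

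In macrophages, CCL2 was 605, 814 and 1439 CPM untreated and 927, 1021 and 1273 CPM with maraviroc (log2 difference 0.17 ± 0.16), and CXCR4 was 44.0, 66.5 and 106 CPM against 58.9, 71.8 and 98.3 CPM (0.09 ± 0.16). Both again overlapped. Macrophage CCR2 (-0.10 ± 0.25), CX3CR1 (-0.20 ± 0.24), CCR1 (0.06 ± 0.10) and CCL7 (0.09 ± 0.48) differed by less than their standard errors. None of the 6 genes passed in monocytes or macrophages, where 0% of 9647 and 0% of 11644 genes did by the edgeR test. At an unadjusted p under 0.05 there were 345 and 343 genes. Not passing does not show that the drug left a gene unchanged.

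Dendritic cells, T cells, NK cells and all myeloid cells together gave the same count, with 0% of 5501, 10570, 8910 and 12815 genes called and 422, 514, 282 and 433 at an unadjusted p under 0.05. No gene of the wider list passed in any class. The largest difference among the 6 was CCL2 in dendritic cells, at 44.1, 255 and 374 CPM untreated and 24.0, 72.7 and 176 CPM with maraviroc (log2 difference -1.45 ± 0.45, edgeR adjusted p = 0.639). It was -1.78 within the first reaction and -0.43 within the second. The share of thinned macrophages with a CXCR4 transcript was 10.9 ± 2.61% untreated and 13.9 ± 2.27% with maraviroc, a difference of 3.00 points (two-sided exact permutation p = 0.755 after adjustment over 24 such tests, 0 of which passed). It was 1.98 points within the first reaction and 4.72 within the second. The dissociation genes had medians of 3589 CPM untreated and 3558 CPM with maraviroc in monocytes, and of 3559 and 3703 CPM in macrophages.

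**Figure D5:**
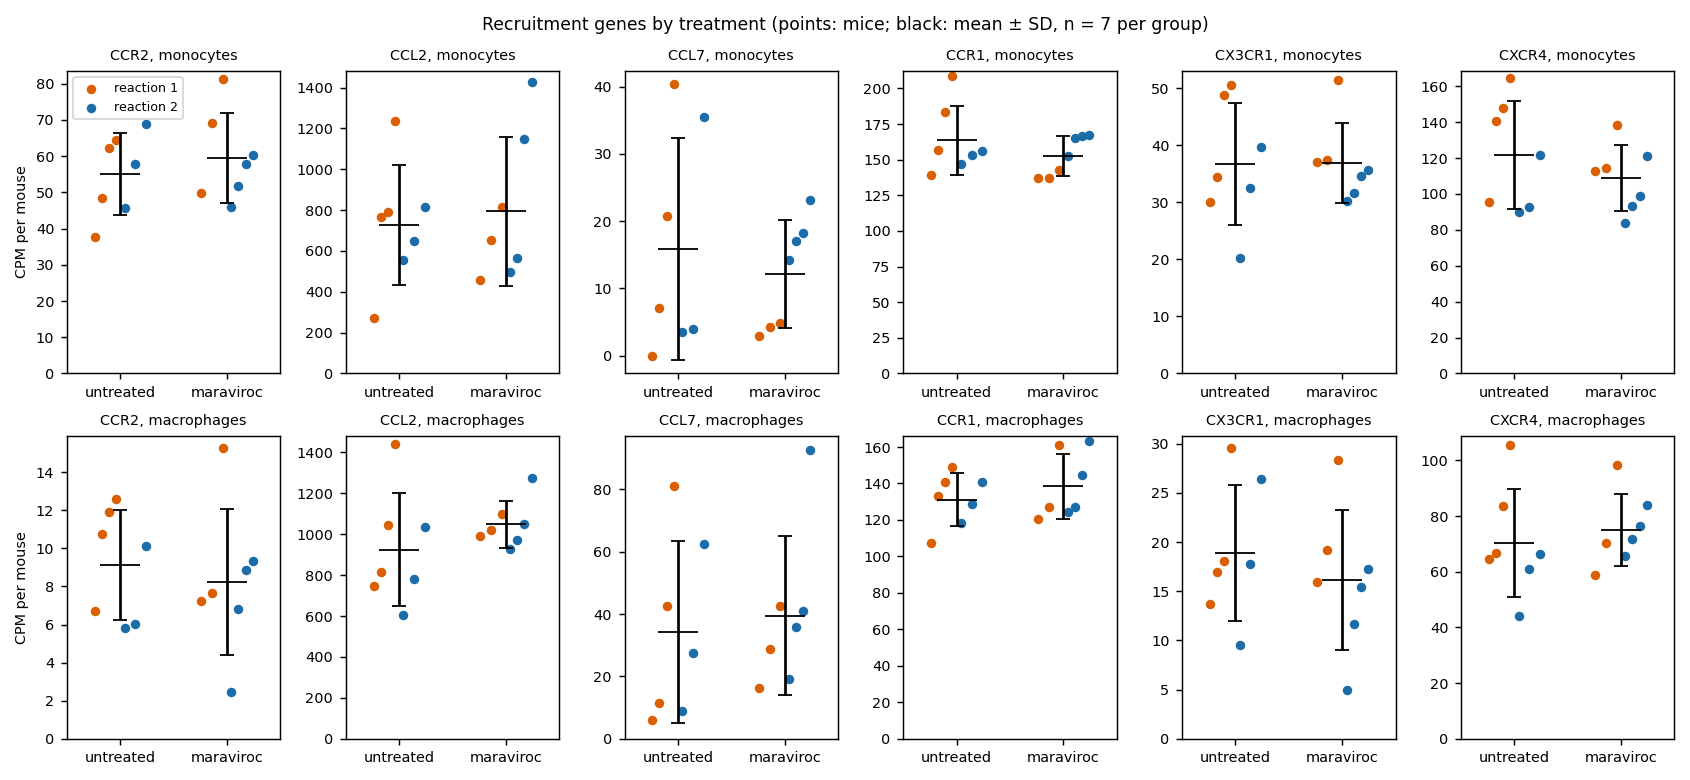
Level in CPM of each gene per mouse in monocytes (top) and macrophages (bottom), untreated and maraviroc, with 1 point per mouse coloured by reaction and black bars for mean ± SD (n = 7 per group). The groups overlap in all 12 panels, as for CCR2 in monocytes (37.7 to 68.9 CPM untreated and 46.1 to 81.4 CPM with maraviroc).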

How the data were processed

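Single-cell RNA libraries (Chromium 3′) with hashtag libraries had been processed by the authors with Cell Ranger 9.0.1 on GRCh38, and the deposited values were raw UMI counts per gene and barcode. Hashtags were assigned with Seurat 5.3.0 (centred log ratio, positive quantile 0.99), and barcodes with several or no hashtags were left out; no doublet caller was run. Classes were set by marker UMIs per 10000. Members, lists and gate limits were chosen with earlier results of these data known. UMIs were summed per mouse and class (at least 10 cells) and tested with edgeR 4.0.16 (TMM scaling, filter on low counts, quasi-likelihood test, adjusted p under 0.05). Class comparisons came from a joint fit of all classes that shared the spread, with mouse as block. Treatment was fitted within each class and had no block. Either side of a class comparison was the unweighted mean of its classes, as for a macrophage state against the other states. CPM and mouse counts beside these values pooled all cells of a side within a mouse. All 6 genes were tested in every class comparison. Those that passed were named in each, and those that did not pass only in some. For monocytes against macrophages, further genes of the wider list were named by role, chosen after their values were seen. In each comparison up to 3 genes of that list were named by size of difference. Some genes that this rule would name are not reported here. Shares of cells used cells thinned to 2000 UMIs, leaving out 3671 and 122 shallower cells. Dendritic, T and NK cells and all myeloid cells were tested for 4, 4, 3 and 6 of the genes, the rest being too low. Alternatives were DESeq2 1.42.0, RLE scaling, no filter, other cell limits, stricter gates, thinned counts, single reactions, the reaction as block and leaving out each mouse; no alternative was added after the data were seen. Intervals cover counting error only. No sequence was printed, since the reference tables used here cover mouse genes.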

Additional observations from a re-analysis of the deposited data

Results flagged for a closer look

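Over 36 groups of 7 mice, 2 held a mouse far from the others, and chance alone places about 1 in 20 groups there. CX3CR1 in monocytes was 51.5 CPM in maraviroc 2 (102 monocytes, first reaction), against 30.2 to 37.5 CPM in the other maraviroc mice. CCL7 in macrophages was 92.8 CPM in maraviroc 6 (59 macrophages, second reaction), against 16.4 to 42.5 CPM in the others. Of 24 tests of whether the treatment difference depended on the reaction, 1 had a raw p under 0.05: CCR1 in monocytes, where the difference in log2 level was -0.27 in the first reaction and 0.09 in the second, so that they differed by 0.36 (exact permutation p = 0.0245, adjusted 0.557, which does not pass).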

How the results depend on the processing

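The class differences that passed kept their direction wherever an alternative gave a value, with 3 exceptions. These were CCL7 in TREM2/SPP1 (-0.056), CX3CR1 in cycling (-1.70) and CCR1 in C1Q macrophages (0.095), all with stricter gates. Of the other values, 891 kept their call and 90 did not. A gene without a value under an alternative, as where the filter removed it, entered none of these counts. The number of the 6 genes that passed moved most where cells or UMIs were fewer. With cells thinned it was 3 of the 6 for monocytes against macrophages and 2 for CXCL10+, C1Q, cDC2 and tumor cells. It was 1 for LYVE1+ and T cells and 0 for cycling, with genes removed by the filter on low counts taken as not passing. With stricter gates it was 1 for CXCL10+, cycling and cDC2, 0 for MT1G+ and C1Q, and 3 for tumor cells. The first reaction by itself gave 0 for S100A12, 1 for TREM2/SPP1, LYVE1+, cycling, cDC2 and T cells, 2 for C1Q and 3 for tumor cells; the second gave 1 for CXCL10+, IL1A/CCL20, TREM2/SPP1 and C1Q, 2 for GLUT1+ and 0 for cycling. DESeq2 gave 0 for MT1G+ and 1 for TREM2/SPP1, no filter gave 4 for T cells, and a mitochondrial share under 8% gave 4 for cycling. Leaving out each mouse gave 0 to 1 for MT1G+ (0 without untreated 5), 1 to 3 for TREM2/SPP1 (1 without maraviroc 5), 1 to 3 for cycling (1 without maraviroc 3) and 3 to 6 for tumor cells (3 without maraviroc 7), with counts over all genes not recomputed. The causes of these changes were not tested. Shares of all genes passing under each alternative are not reported here. These counts therefore do not show whether the 6 genes moved more than other genes. Counts over all genes fell with thinning (7122 to 2955 for monocytes against macrophages, 3303 to 1139 for GLUT1+) and with stricter gates (1737 to 387 for CXCL10+, 742 to 60 for MT1G+, 3271 to 611 for cycling, 3953 to 1167 for cDC2), and rose for C1Q from 1162 to 1969 with no filter, 2763 above 1000 genes per cell and 1773 under 8% mitochondrial.

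None of the 6 genes passed for treatment under any alternative, and signs near 0 turned. In monocytes CCR2 was -0.014 thinned and -0.077 in the second reaction, CCL2 -0.30 in the first, and CCL7 0.27, CCR1 0.13, CX3CR1 0.079 and CXCR4 0.011 in the second. In macrophages CCR2 was 0.031 at hashtag quantile 0.95, 0.14 with stricter gates and 0.091 in the second reaction, CCR1 -0.013 thinned and -0.0023 in the first reaction, CCL7 -0.0021 above 1000 genes and -0.25 in the first reaction, CX3CR1 0.019 and CXCR4 -0.094 in the first. Leaving out each mouse gave -0.026 to 0.12 for CCR2, -0.090 to 0.31 for CCL2, -0.49 to 0.11 for CCL7 and -0.16 to 0.032 for CX3CR1 in monocytes, and -0.13 to 0.47 for CCL7 in macrophages. With the reaction as replicate block CX3CR1 in monocytes was 0.021, and the block changed no other direction and no call of the 6 genes, with 0 passing. Over all genes, 4 passed in monocytes of the first reaction, and in T cells 3 with no filter, 3 by DESeq2, 1 above 1000 genes and 1 without untreated 2. Replicate numbers pair no mice across treatments, so only the reaction was used as block. Differences of the low genes CCL7, CX3CR1 and CCR2 in the smaller states rest on few UMIs, and depth differed between reactions.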

Other observations

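The wider list of entry genes gave further values by state, tested as in the report. Of all genes, 27.2% passed in GLUT1+, 26% in LYVE1+, 6.1% in MT1G+, 26.9% in cycling and 9.55% in C1Q macrophages. In GLUT1+ macrophages 3 of 26 genes rose and 6 fell, with CCL8 (log2 difference -2.24) and CCL13 (-1.37), 2 ligands of CCR2, among those that fell. LYVE1+ macrophages had 4 genes up and 10 down, with the chemokine CCL23 up (1.65) and ACKR3 (-2.61) and CCL3 (-1.53) down. MT1G+ macrophages had 3 up and 2 down, with ACKR3 up (2.36) and CCL13 down (-0.70). Cycling macrophages had 3 up and 6 down, with CCL23 down (-1.06) and ACKR3 at -1.02 without passing. In C1Q macrophages 3 rose and 3 fell, among them CCL8 (-1.29) and CCL13 (-0.63), with CCL4 at -0.64 without passing. TREM2/SPP1 macrophages were led by ACKR3 (1.22), CCL4 (0.93) and CCL8 (0.91).

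In cDC2 against monocytes CCL8 (-1.88) fell, and CCL23 stood at -1.84 without passing. T cells against NK cells had 4 genes up and 11 down, where 36.6% of all genes passed. CCL3 (-2.47) and CCL5 (-2.38), both released by NK cells, were lower in T cells. Tumor cells against macrophages had 2 up and 19 down, where 51.7% of all genes passed. The largest differences were in CCL23 (-5.51), the arrestin ARRB2 (-4.79) and CCL13 (-4.33).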
